A study of Mus musculus with 67 samples.

Results

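Primary granules are the first storage granules that developing myeloid cells make. Under the heading of primary granule proteins, 9 genes were followed here: Elane, Prtn3, Ctsg, Mpo, Fcnb, Srgn, Nkg7, Igsf6 and Calr. The heading is a label, and the 9 did not share 1 pattern. They were chosen by gene symbol and make up 9 of the 24421 genes listed in each of 3 tables. All 9 passed the filter on low values in every table. Polyadenylated RNA of sorted mouse cells had been sequenced, which gave 67 libraries in 28 groups of monocytes and their marrow progenitors.

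The 7-week table came from C57BL/6 mice aged 7 weeks. Its marrow libraries were 4 of the progenitor that gives rise to monocytes and dendritic cells (MDP), 4 of the monocyte-restricted progenitor that follows it (cMoP), 3 of Ly6C+ monocytes and 4 of Ly6C- monocytes. Its blood libraries were 4 of Ly6C+, 3 of Ly6Cint and 3 of Ly6C- monocytes. The knockout table had 2 libraries per group. Its blood monocytes came from mice aged 16 weeks on a mixed background, sorted as Ly6C+ and Ly6Cint from ko mice and as Ly6C+, Ly6Cint and Ly6C- from wt mice, and its marrow MDP, cMoP and Ly6C+ monocytes came from C57BL/6 mice aged 8 weeks. The labels do not name the deleted gene per library. The transfer table (C57BL/6, 8 weeks) followed marrow Ly6C+ monocytes before transfer (n = 2) and as grafts recovered from blood and from spleen after 24, 36 and 48 h (n = 2 each), together with Ly6C+, Ly6Cint and Ly6C- monocytes of the hosts at 24 h from both organs (n = 2 each). Marrow and blood cells of the first 2 tables were enriched with CD115 beads before the sort. The labels do not say that libraries of a group came from separate animals, so p-values measure only the spread between these libraries, which may be technical.

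Elane, Prtn3 and Ctsg encode serine proteases (neutrophil elastase, proteinase 3 and cathepsin G), and Mpo encodes myeloperoxidase, the enzyme that makes hypochlorous acid. These proteins are made at the promyelocyte and early monocyte progenitor stage and are then stored, so the mRNA is usually gone from mature cells that still carry the protein. The proteases are switched on by cathepsin C, which trims their ends, and are packed on the chondroitin sulphate chains of serglycin, the Srgn product. Fcnb encodes ficolin B, a lectin of the innate immune system. Nkg7 encodes a granule membrane protein best known from cytotoxic lymphocytes, Igsf6 an immunoglobulin-family membrane protein of myeloid cells, and Calr calreticulin, an endoplasmic reticulum chaperone that binds the myeloperoxidase precursor. In the genome Prtn3 and Elane are neighbours on chromosome 10, and Ctsg lies on chromosome 14 between Mcpt8 and Gzme.

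The stretches just before the start sites of 5 members are shown because C/EBP factors, PU.1, Myb and Runx1 are known to act on granule genes. Elane, Prtn3, Ctsg and Mpo moved together below, and Fcnb, which had its peak at a later stage, is set beside them. Each is 250 bases long, ends at the base before the start and reads in the gene's own direction. The sequences are from RefSeq on build GRCm38.p6, which is later than the mm9 build named in the submitters' processing notes. Elane lies at chr10:79886062-79886311 on the plus strand, Prtn3 at chr10:79879417-79879666 on the plus strand, Ctsg at chr14:56102575-56102824 on the minus strand, Mpo at chr11:87793534-87793783 on the plus strand and Fcnb at chr2:28084879-28085128 on the minus strand. Capitals mark GAGGAA, the core letters of a PU.1 motif, in the first 4, and TTGCNNAA on either strand, a C/EBP motif, in Fcnb.
Elane promoter: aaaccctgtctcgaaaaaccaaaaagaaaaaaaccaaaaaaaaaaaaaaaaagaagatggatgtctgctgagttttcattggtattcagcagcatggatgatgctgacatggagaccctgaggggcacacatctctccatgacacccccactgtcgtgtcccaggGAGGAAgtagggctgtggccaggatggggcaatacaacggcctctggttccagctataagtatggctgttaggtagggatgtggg
Prtn3 promoter: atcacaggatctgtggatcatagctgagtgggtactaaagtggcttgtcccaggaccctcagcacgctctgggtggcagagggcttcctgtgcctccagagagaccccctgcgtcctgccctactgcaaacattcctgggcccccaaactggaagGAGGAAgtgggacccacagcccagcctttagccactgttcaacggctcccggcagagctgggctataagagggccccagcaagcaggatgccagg
Ctsg promoter: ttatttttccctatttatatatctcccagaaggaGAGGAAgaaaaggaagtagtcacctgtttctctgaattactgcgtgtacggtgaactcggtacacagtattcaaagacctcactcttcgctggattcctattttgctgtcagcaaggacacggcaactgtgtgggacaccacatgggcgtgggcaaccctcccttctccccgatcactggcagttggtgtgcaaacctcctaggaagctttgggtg
Mpo promoter: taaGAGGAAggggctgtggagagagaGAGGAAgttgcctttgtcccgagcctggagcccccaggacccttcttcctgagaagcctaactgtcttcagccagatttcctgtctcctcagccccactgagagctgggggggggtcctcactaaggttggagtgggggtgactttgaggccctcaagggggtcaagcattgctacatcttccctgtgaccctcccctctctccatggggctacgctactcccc
Fcnb promoter: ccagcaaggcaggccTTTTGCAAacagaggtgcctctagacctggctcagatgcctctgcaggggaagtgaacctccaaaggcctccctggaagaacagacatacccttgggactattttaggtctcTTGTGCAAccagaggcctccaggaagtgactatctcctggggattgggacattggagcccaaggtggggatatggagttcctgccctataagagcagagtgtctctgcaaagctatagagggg

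Counted back from the start, GAGGAA began at base -85 in Elane, -95 in Prtn3, -216 in Ctsg, and -247 and -224 in Mpo. Its reverse complement also stood in the Igsf6 promoter. Searched on both strands, GAGGAA was present for 5 of the 9 members and in 23.3% of 32851 mouse promoters of this length. TTGCNNAA was found for 1 member, Fcnb, with 2 matches starting at -235 and -123, and in 9.56% of all promoters. The looser C/EBP letters TTNNGNAA were found for 3 members (Fcnb, Igsf6 and Srgn) and in 36.8% of promoters. The Runx letters TGTGGT were found for 3 members (Ctsg, Nkg7 and Srgn) and in 14.0% of promoters. Srgn had 2 start sites searched, and its Runx and looser C/EBP matches stood at the second only. The Myb letters AACNG matched all 9 members, but also 74.2% of promoters, and in Fcnb 1 of these matches overlapped the last letter of a C/EBP match. A match describes these letters only and is not a binding site.

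Levels are given as reads scaled to 1000000 per library (RPM), and ratios as log2 of RPM plus 1 between group means, fitted with limma over all genes of a table and called at a Benjamini-Hochberg adjusted p under 0.05. Reads per library ranged from 577690 to 3643327 in the 7-week table and from 942751 to 5478761 in the knockout table, so 1 read was worth 0.194 to 1.11 RPM and 0.146 to 0.833 RPM. No depth could be recovered for the transfer table. The monocyte marker list summed to 5730 to 7315 RPM in 7-week marrow Ly6C+ monocytes, 4027 to 4649 RPM in cMoP and 522 to 608 RPM in MDP. Cebpb, the gene for C/EBP beta named in the series title, stood at 115 and 57.2 RPM in ko Ly6C+ monocytes against 804 and 693 RPM in wt, and at 186 and 67.1 RPM in ko Ly6Cint monocytes against 1734 and 1242 RPM in wt, so the 4 libraries labelled ko lay below the 4 labelled wt.

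In 7-week marrow all 9 genes stood higher in cMoP than in MDP, and Elane had the largest log2 ratio of the 9. The test called 7 of the 9 higher and 0 lower, where 9.25% of the 11373 genes tested were called in either direction. The median log2 ratio of the members was 1.66, against -0.01 over all genes tested. Each member's 4 cMoP libraries lay above its 4 MDP libraries, and groups did not overlap for 2871 of the 11373 genes tested. An exact two-sided permutation test over the libraries gave an unadjusted p = 0.0286 for each member. That is the smallest value that 4 against 4 allows, and it follows from the separation alone, so it adds nothing to it. In bulk libraries, fewer cells that make an mRNA and less mRNA in each cell cannot be told apart.

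Elane stood at 1012, 1306, 1289 and 1565 RPM in cMoP, against 48.8, 62.7, 79.6 and 78.2 RPM in MDP. The lowest cMoP library was thus more than 10 times the highest MDP library. The log2 ratio was 4.25 ± 0.60 (SE, limma adjusted p = 6.93e-06, higher in 4 of 4 libraries).

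Prtn3 stood at 5200, 4777, 5161 and 4421 RPM in cMoP, against 1729, 1487, 1618 and 1377 RPM in MDP. Both groups were tight and far apart, and Prtn3 was already abundant in MDP. Its log2 ratio was 1.66 ± 0.50 (SE, limma adjusted p = 0.0303). This call was fragile, since it was lost when any 1 of the 8 libraries was left out (limma adjusted p = 0.0535 to 0.0802).

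Ctsg reached 3395, 2933, 3180 and 2713 RPM in cMoP, against 1460, 1121, 1162 and 1095 RPM in MDP. Mpo reached 2620, 2611, 2823 and 2933 RPM in cMoP, against 1117, 1276, 1293 and 1205 RPM in MDP. The groups of both genes were apart by more than their spread, but neither gene passed the test, which takes 1 spread from all 7 groups of the table. The log2 ratio was 1.34 ± 0.45 for Ctsg (SE, limma adjusted p = 0.0600) and 1.17 ± 0.57 for Mpo (SE, limma adjusted p = 0.283). With the 8 progenitor libraries fitted alone, the limma adjusted p was 4.18e-08 for Ctsg and 2.37e-08 for Mpo, and with edgeR on the recovered reads it was 0.00725 for Ctsg and 0.0526 for Mpo.

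Fcnb was a rare mRNA at this step. It had 53, 44, 49 and 46 reads in the 4 cMoP libraries, which is 10.7 to 14.9 RPM, against 1, 2, 0 and 0 reads in MDP. Summed over libraries, the ratio was 72.7 with a 95% counting interval of 24.5 to 356, and Fcnb was called (limma adjusted p = 2.67e-09).

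Srgn, the proteoglycan that holds the proteases in the granule, stood at 1341, 1260, 1294 and 1238 RPM in cMoP, against 784, 583, 526 and 625 RPM in MDP (log2 ratio 1.04 ± 0.13 SE, limma adjusted p = 9.51e-07). Nkg7 stood at 270, 183, 200 and 219 RPM in cMoP, against 63.8, 48.9, 53.1 and 48.4 RPM in MDP (2.00 ± 0.52 SE, limma adjusted p = 0.00991). Neither gene's groups overlapped, although the Nkg7 call was lost with 0.25 RPM in place of 1 RPM added before the log (limma adjusted p = 0.184). Igsf6 stood at 76.1, 79.4, 63.6 and 74.7 RPM in cMoP, against 20.48, 16.8, 12.3 and 15.7 RPM in MDP (2.12 ± 0.17 SE, limma adjusted p = 1.45e-10). Calr stood at 2427, 2308, 2630 and 2333 RPM in cMoP, against 1202, 1395, 1209 and 1529 RPM in MDP (0.87 ± 0.22 SE, limma adjusted p = 0.00895). Its groups were well separated, and its ratio was the smallest of the 9. NK and T cell markers (16 genes), listed because Nkg7 is abundant in those cells, summed to 7.82 to 15.1 RPM in cMoP and 12.0 to 16.2 RPM in MDP. In each of these groups 9 of the 16 were at 0 in every library, with Ncr1, Gzmb, Prf1 and Eomes among both.

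**Figure D1:**
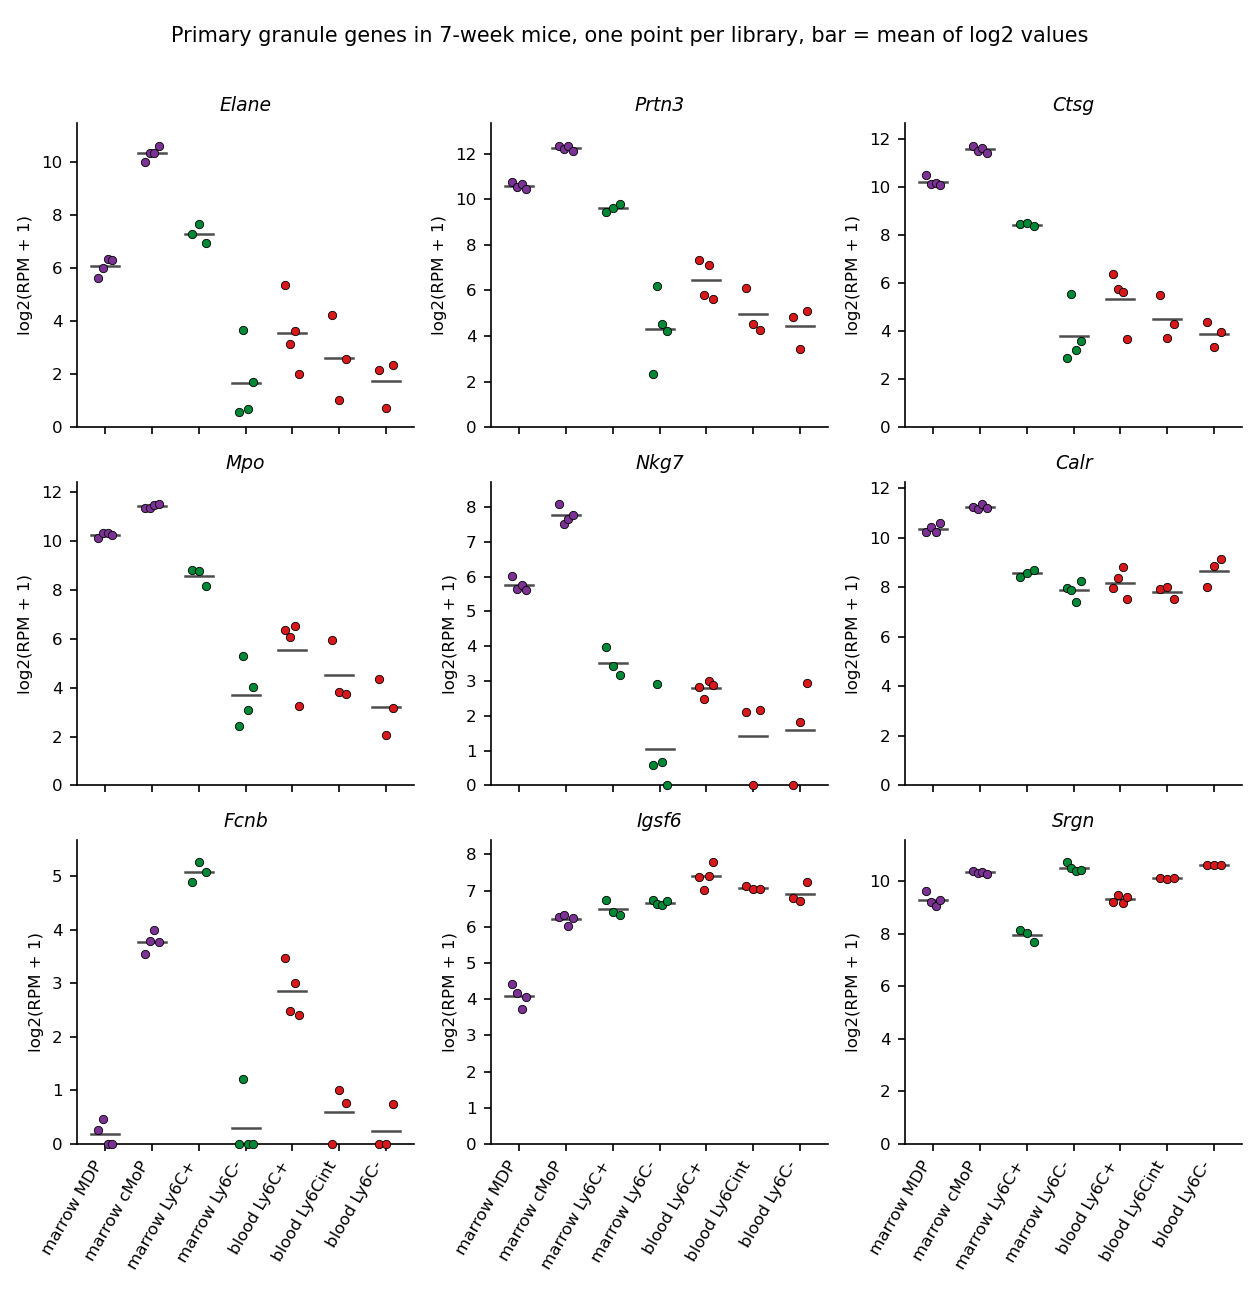
Level of each of the 9 genes in every 7-week library, as log2 of RPM plus 1, with populations along the horizontal axis, 1 point per library and a bar at the group mean of the log2 values. Elane, Prtn3, Ctsg, Mpo, Nkg7 and Calr peak in marrow cMoP, Fcnb peaks in marrow Ly6C+ monocytes, Igsf6 stays up in all monocytes, and Srgn is lowest in marrow Ly6C+ monocytes.

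To set levels of different genes against each other, RPM were divided by the length of the transcript listed in the tables. In cMoP the mean was 4771 RPM per kb for Prtn3, 3049 for Ctsg, 1368 for Srgn, 1314 for Elane, 1110 for Calr, 998.9 for Mpo, 248 for Nkg7, 33.8 for Igsf6 and 10.9 for Fcnb. Ordered this way, Prtn3 was the most abundant member and Fcnb the least. In MDP, Elane had 68.4 RPM per kb, against 1515 for Prtn3 and 1208 for Ctsg, so the elastase mRNA lagged behind that of the other proteases at this stage.

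The mix of the 4 enzyme mRNAs differed between the progenitors. Shares here are of RPM not corrected for length, and the Mpo transcript is longer (2750 bases, against 984 to 1025 bases for the proteases), so a share is compared between groups and not between genes. Of the RPM summed over Elane, Prtn3, Ctsg and Mpo, Elane made up 8.27% to 13.5% in cMoP libraries and 1.12% to 2.08% in MDP libraries. Prtn3 held 38.0% to 42.5% in cMoP and 36.7% to 39.7% in MDP, and the share of Mpo was 21.4% to 25.2% in cMoP and 25.7% to 32.3% in MDP. The summed level was 11630 to 12450 RPM in cMoP and 3755 to 4355 RPM in MDP.

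Genes that serve the granule proteins were read from lists of known genes. Of 17 tested genes of other azurophil and lysosomal proteins, 8 were called higher in cMoP and 0 lower, with a list median of 0.51. Ms4a3, a membrane protein of granulocyte-monocyte progenitors, averaged 449.8 ± 85.1 RPM in cMoP and 25.9 ± 10.6 RPM in MDP (SD, n = 4 each; log2 ratio 4.15, limma adjusted p = 1.32e-06), and Prss57, a further granule serine protease, averaged 196 ± 12.3 RPM in cMoP and 78.2 ± 9.50 RPM in MDP (log2 ratio 1.32, limma adjusted p = 0.0205). Ctsc, the protease activator, averaged 170 ± 6.66 RPM in cMoP and 44.5 ± 7.24 RPM in MDP (log2 ratio 1.93, limma adjusted p = 1.52e-11). Among 8 tested processing and inhibitor genes, 2 were called higher (Ctsc and Slpi, an elastase inhibitor) and 1 lower.

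Endoplasmic reticulum chaperones, which fold secretory proteins, rose with Calr: 11 of 18 were called higher in cMoP and 0 lower, with a list median of 0.84. P4hb, a disulfide isomerase, averaged 1107 ± 76.9 RPM in cMoP and 506 ± 10.12 RPM in MDP (SD, n = 4 each; log2 ratio 1.13, limma adjusted p = 4.68e-05). Hspa5, the chaperone BiP, averaged 529 ± 20.6 RPM in cMoP and 283 ± 23.7 RPM in MDP (log2 ratio 0.90, limma adjusted p = 0.00433). Of 16 tested genes for building chondroitin and heparan chains 0 were called higher and 1 lower, Chst15, a sulphotransferase. This is near the share of all genes tested that were called, 9.25%, so it is not read as a result about that list.

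Of 15 tested granulocyte and monocyte transcription factors, 4 were called higher in cMoP (Klf4, Cebpb, Cebpd and Cebpe) and 2 lower (Hoxa9 and Gata2). Cebpe, a driver of granulocyte maturation, averaged 41.6 ± 5.86 RPM in cMoP and 3.91 ± 1.59 RPM in MDP (SD, n = 4 each; log2 ratio 3.18, limma adjusted p = 1.42e-06). Gfi1, a repressor that favours the granulocyte fate, averaged 20.51 ± 3.07 RPM in cMoP and 12.3 ± 1.65 RPM in MDP (limma adjusted p = 0.281). Myb averaged 206 ± 28.2 RPM in cMoP and 232 ± 32.5 RPM in MDP (limma adjusted p = 0.959). Of the 12 tested genes of secondary and tertiary granules, which neutrophils make later, 5 were called higher and 0 lower, among them Hp and Cybb. Markers of neutrophils (14 genes) summed to 98.2 to 134.5 RPM in cMoP and 92.1 to 147.8 RPM in MDP, and those ranges overlapped. Markers of basophils, mast cells and eosinophils (11 genes) summed to 82.0 to 103.3 RPM in cMoP and 37.2 to 42.6 RPM in MDP. Of these, Prss34, Fcer1a, Epx and Ear6 were at 0 in all cMoP libraries, while Cpa3, Mcpt8, Ms4a2, Gata2, Hdc, Prg2 and Siglecf were not. In MDP only Fcer1a was at 0 in all libraries. The part of these markers in the results was not tested.

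At the next step, in 7-week marrow Ly6C+ monocytes, the protease and peroxidase mRNAs fell sharply, while Fcnb went on rising. The test called 7 members lower than in cMoP and 1 higher, where 37.7% of all genes tested were called. The members' median log2 ratio was -2.68, against -0.17 over all genes. For none of the 9 did the 3 Ly6C+ libraries overlap the 4 cMoP libraries, which was also so for 6249 of the 11373 genes tested.

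Elane had 153, 203 and 121 RPM in Ly6C+ monocytes, against 1012 to 1565 RPM in cMoP (log2 ratio -3.03 ± 0.65 SE, limma adjusted p = 0.000484). Prtn3 had 693, 784 and 871 RPM in Ly6C+ monocytes, against 4421 to 5200 RPM in cMoP (-2.65 ± 0.54 SE, limma adjusted p = 0.000262). Ctsg had 355, 359 and 328 RPM in Ly6C+ monocytes, against 2713 to 3395 RPM in cMoP (-3.13 ± 0.49 SE, limma adjusted p = 7.45e-06). The 3 proteases thus fell by similar amounts, and all stayed detectable in each library. Mpo had 455, 435 and 288 RPM in Ly6C+ monocytes, against 2611 to 2933 RPM in cMoP (-2.83 ± 0.61 SE, limma adjusted p = 0.000519). Nkg7 fell furthest of the 9, to 14.7, 9.73 and 7.97 RPM in Ly6C+ monocytes, against 183 to 270 RPM in cMoP (-4.24 ± 0.56 SE, limma adjusted p = 6.21e-07).

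Srgn fell to 280, 257 and 204 RPM in Ly6C+ monocytes, against 1238 to 1341 RPM in cMoP (log2 ratio -2.38 ± 0.14 SE, limma adjusted p = 5.15e-14). Calr fell to 339, 387 and 413 RPM in Ly6C+ monocytes, against 2308 to 2630 RPM in cMoP (-2.68 ± 0.24 SE, limma adjusted p = 4.12e-10). Scaffold and chaperone mRNA thus fell beside the enzymes they serve. Fcnb rose to 28.6, 37.1 and 32.6 RPM in Ly6C+ monocytes, against 10.7 to 14.9 RPM in cMoP (1.30 ± 0.36 SE, limma adjusted p = 0.00461, but 0.115 with 0.25 RPM added). Igsf6 had 106.5, 84.5 and 79.7 RPM in Ly6C+ monocytes, against 63.6 to 79.4 RPM in cMoP. All 3 Ly6C+ libraries lay above the highest cMoP library by a little, and the log2 ratio of 0.29 ± 0.18 (SE) was not called (limma adjusted p = 0.222).

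The processing and folding genes divided here. Ctsc rose again, to 504 ± 5.14 RPM in Ly6C+ monocytes (SD, n = 3), against 170 ± 6.66 RPM in cMoP (n = 4; log2 ratio 1.56, limma adjusted p = 1.05e-09), while its substrates' mRNA fell. The inhibitor Serpinb1a, a serpin of neutrophil serine proteases, fell to 71.4 ± 9.27 RPM, against 250.2 ± 15.6 RPM in cMoP (log2 ratio -1.80, limma adjusted p = 0.000157). Of the 18 chaperones 12 were called lower and 0 higher, with a list median of -0.89. Hspa5 fell to 202 ± 26.1 RPM in Ly6C+ monocytes, against 529 ± 20.6 RPM in cMoP (limma adjusted p = 1.90e-05). Among other azurophil and lysosomal genes 6 were called higher and 5 lower: Lyz2 (lysozyme) rose to 3564 ± 234 RPM, against 174 ± 23.5 RPM in cMoP (limma adjusted p = 2.54e-16), and Ms4a3 and Prss57 fell (log2 ratios -3.81 and -3.87, limma adjusted p = 5.01e-06 and 8.84e-09). The secondary and tertiary granule list had 7 of 12 called higher and 0 lower. Beside this and the rise of Fcnb, the neutrophil marker sum was 486 to 652 RPM in Ly6C+ monocytes and 98.2 to 134.5 RPM in cMoP, and its part was not tested. In host blood Ly6C+ monocytes of the transfer table this list summed to 422 to 483 RPM. There 6 of its 14 genes were at 0 in every library (Camp, Ngp, Cxcr2, Retnlg, Mmp9 and Stfa2l1). The sum of this list is thus not read as a level of neutrophils.

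Of the transcription factors 5 were called higher and 5 lower in Ly6C+ monocytes. Gfi1 fell to 1.201 ± 0.52 RPM, against 20.51 ± 3.07 RPM in cMoP (log2 ratio -3.31, limma adjusted p = 2.07e-08), and Myb to 33.8 ± 2.90 RPM, against 206 ± 28.2 RPM (log2 ratio -2.57, limma adjusted p = 0.000411). Cebpb rose to 410 ± 70.9 RPM, against 136 ± 18.9 RPM in cMoP (log2 ratio 1.58, limma adjusted p = 2.08e-06). Cebpe averaged 29.5 ± 13.0 RPM in Ly6C+ monocytes and 41.6 ± 5.86 RPM in cMoP (limma adjusted p = 0.318).

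Set directly against MDP, 7-week marrow Ly6C+ monocytes had 2 members called higher and 5 lower, where 42.7% of genes were called. The 2 that rose were Fcnb (log2 ratio 4.89, limma adjusted p = 2.64e-12) and Igsf6 (2.41, limma adjusted p = 5.26e-12), and those that fell were Ctsg, Mpo, Srgn, Nkg7 and Calr, by 1.34 to 2.24 on the log2 scale. The Mpo call (limma adjusted p = 0.0291) was lost without any of 5 libraries in turn, with limma adjusted p up to 0.108 without Ly6C+ replicate 4. Elane averaged 159 ± 41.4 RPM in Ly6C+ monocytes (SD, n = 3) and 67.3 ± 14.5 RPM in MDP (n = 4). Its groups did not overlap, as for 6432 of the 11373 genes tested, and its log2 ratio of 1.22 ± 0.65 (SE) was not called (limma adjusted p = 0.135). Prtn3 averaged 782 ± 89.0 RPM in Ly6C+ monocytes and 1553 ± 153 RPM in MDP (log2 ratio -0.99, limma adjusted p = 0.144). With the compared libraries fitted alone both differences were called (limma adjusted p = 5.04e-05 for Elane and 5.62e-06 for Prtn3). The share of Elane in the 4-enzyme sum was 7.53% to 11.4% in Ly6C+ libraries, above all 4 MDP libraries and overlapping the cMoP range.

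The 8-week marrow libraries gave the same populations a second time, with 2 libraries each and in another table, so no test was made across tables. Here cMoP against MDP had 2 members called higher and 0 lower, where 4.85% of 11388 genes were called. Elane had 3023 and 2722 RPM in cMoP, against 464 and 305 RPM in MDP (log2 ratio 2.93 ± 0.30 SE, limma adjusted p = 6.63e-05). Igsf6 had 108 and 148 RPM in cMoP, against 67.7 and 71.9 RPM in MDP (0.85 ± 0.22 SE, limma adjusted p = 0.0362). Neither gene's groups overlapped, though Igsf6 lost its call without MDP replicate 1, MDP replicate 2 or cMoP replicate 2 (limma adjusted p = 0.138 to 0.215).

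The other enzymes had higher mean levels in 8-week cMoP but were not called. Prtn3 had 11174 and 7474 RPM in cMoP, against 4066 and 4409 RPM in MDP (limma adjusted p = 0.0708, edgeR adjusted p = 0.0128). Mpo had 5164 and 4734 RPM in cMoP, against 2711 and 2296 RPM in MDP (limma adjusted p = 0.178, edgeR adjusted p = 0.0237). Ctsg had 4238 and 2545 RPM in cMoP, against 1872 and 1753 RPM in MDP (limma adjusted p = 0.323). None of these 3 pairs of groups overlapped, as for 5142 of the 11388 genes tested, and the 2 cMoP libraries of Prtn3 and Ctsg lay far apart. Fcnb, which was near 0 in 7-week MDP, had 23.6 and 24.4 RPM in 8-week cMoP and 21.9 and 26.2 RPM in 8-week MDP (log2 ratio 0.00, limma adjusted p = 1). The groups overlapped for Fcnb, Srgn, Nkg7 and Calr.

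Neutrophil markers stood at another level in these libraries. The 14-gene sum was 3460 to 4246 RPM in 8-week cMoP and 3825 to 4735 RPM in 8-week MDP, against 98.2 to 134.5 RPM in 7-week cMoP and 92.1 to 147.8 RPM in 7-week MDP. Only Stfa2l1 of the 14 was at 0 in both 8-week groups. Their part in the 8-week granule values was not tested. The 4-enzyme sum was 17470 to 23600 RPM in 8-week cMoP and 8763 to 9113 RPM in 8-week MDP, and the Elane share was 12.8% to 15.6% in cMoP and 3.48% to 5.09% in MDP, again without overlap. The 18 chaperones had a median log2 ratio of 0.34 at this step, against -0.18 over all genes.

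From 8-week cMoP to Ly6C+ monocytes the directions seen at 7 weeks recurred. All 9 members were called, 2 higher and 7 lower, where 36.8% of genes were called. Elane had 244 and 280 RPM in Ly6C+ monocytes, against 3023 and 2722 RPM in cMoP (log2 ratio -3.45 ± 0.30 SE, limma adjusted p = 9.14e-07). Mpo had 128 and 98.3 RPM in Ly6C+ monocytes, against 5164 and 4734 RPM in cMoP (-5.45 ± 0.38 SE, limma adjusted p = 1.01e-07), the deepest fall of the 9. Prtn3 had 1018 and 759 RPM in Ly6C+ monocytes, against 11174 and 7474 RPM in cMoP (-3.38 ± 0.33 SE, limma adjusted p = 2.68e-06). Fcnb had 71.2 and 98.3 RPM in Ly6C+ monocytes, against 23.6 and 24.4 RPM in cMoP (1.76 ± 0.34 SE, limma adjusted p = 0.00108), and Igsf6 had 317 and 209 RPM in Ly6C+ monocytes, against 108 and 148 RPM in cMoP (1.02 ± 0.22 SE, limma adjusted p = 0.00202). No member's groups overlapped at this step, but with 2 libraries per group this also held for 7178 of the 11388 genes tested. The neutrophil marker sum was 759 to 801 RPM in Ly6C+ monocytes, below both progenitors, and its part in these falls was not tested.

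Against 8-week MDP, 8-week marrow Ly6C+ monocytes had 2 members called higher (Fcnb and Igsf6) and 6 lower, where 44.6% of genes were called. Elane was the 1 member not called, with 244 and 280 RPM in Ly6C+ monocytes and 464 and 305 RPM in MDP (log2 ratio -0.53 ± 0.30 SE, limma adjusted p = 0.174). The Elane share of the 4-enzyme sum reached 14.8% to 21.4% in Ly6C+ libraries, and the Mpo share dropped to 7.51% to 7.76%, against 26.2% to 29.7% in MDP.

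**Figure D2:**
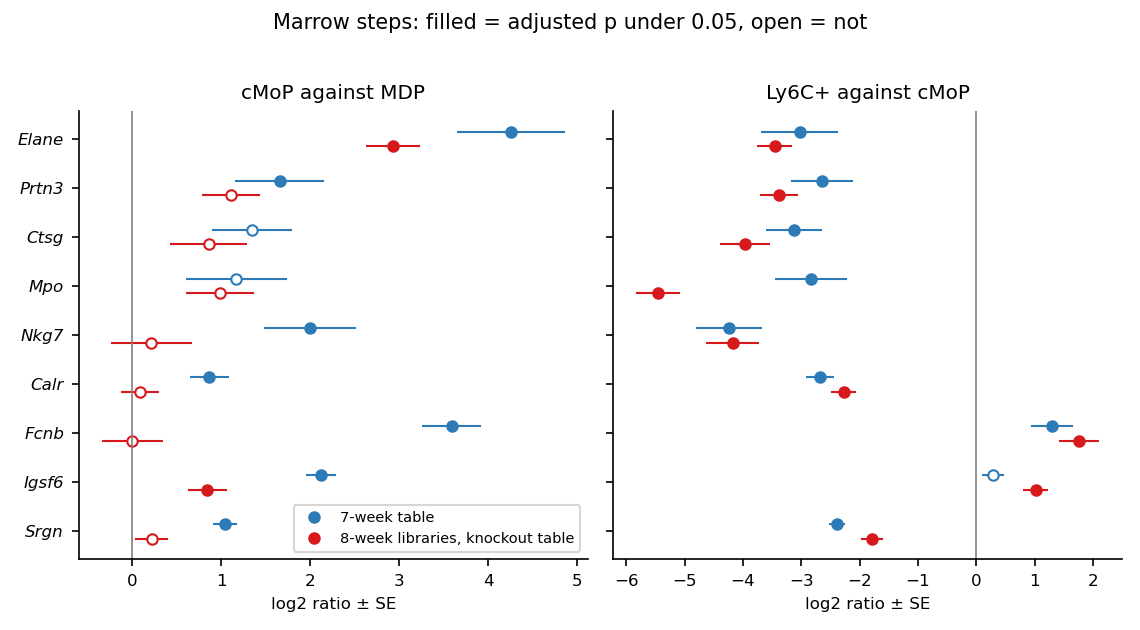
Fitted log2 ratio of each gene with its standard error for cMoP against MDP (left) and Ly6C+ monocytes against cMoP (right), with filled points for an adjusted p under 0.05. Blue points are 7-week and red points 8-week libraries. The fall from cMoP to Ly6C+ monocytes appears in both sets for 7 genes, and Fcnb lies above 0 in both, while the step from MDP is called in both only for Elane and Igsf6.

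**Figure D3:**
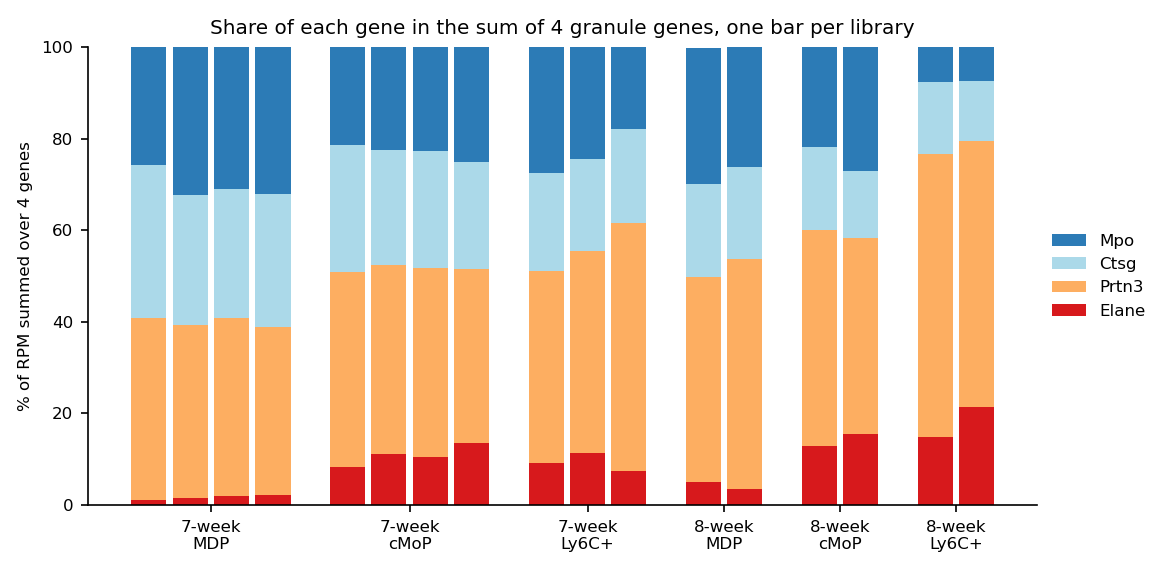
Share of Elane, Prtn3, Ctsg and Mpo in the sum of their RPM, in percent and not corrected for length, with 1 bar per marrow library. The Elane segment is 1.12% to 5.09% in MDP libraries and 7.53% to 21.4% in cMoP and Ly6C+ libraries.

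Ly6C+ monocytes of blood had far less of the enzyme mRNAs than those of marrow. In 7-week blood Ly6C+ against marrow Ly6C+ monocytes, 2 members were called higher and 5 lower, where 26.0% of genes were called. Elane had 40.5, 7.68, 11.5 and 3.01 RPM in blood, against 153, 203 and 121 RPM in marrow (log2 ratio -3.76 ± 0.65 SE, limma adjusted p = 6.27e-05). Prtn3 had 162, 53.8, 139 and 48.6 RPM in blood, against 693, 784 and 871 RPM in marrow (-3.14 ± 0.54 SE, limma adjusted p = 5.47e-05). The 4 blood libraries differed from each other several-fold for both genes, with replicate 1 highest for each, but every one lay below every marrow library. Groups did not overlap for 3195 of the 11373 genes tested. Ctsg (-3.09, limma adjusted p = 1.49e-05), Mpo (-3.03, limma adjusted p = 0.000411) and Fcnb (-2.23, limma adjusted p = 1.89e-05) also fell. Srgn turned round and rose to 581, 700, 571 and 676 RPM in blood, against 280, 257 and 204 RPM in marrow (1.36 ± 0.14 SE, limma adjusted p = 1.74e-08), and Igsf6 was higher by 0.89 ± 0.18 on the log2 scale (SE, limma adjusted p = 0.000415). The neutrophil marker sum was 348.0 to 459.4 RPM in blood and 486 to 652 RPM in marrow, and its part in the falls was not tested.

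In Ly6C- monocytes of 7-week marrow 7 members were called lower and 1 higher than in marrow Ly6C+ monocytes, where 40.1% of genes were called. Prtn3 had 3.98, 71.9, 22.3 and 17.8 RPM in Ly6C- monocytes, against 693, 784 and 871 RPM in Ly6C+ monocytes (log2 ratio -5.29 ± 0.54 SE, limma adjusted p = 4.52e-09). Elane had 0.498, 11.8, 0.586 and 2.22 RPM in Ly6C- monocytes, that is 1, 18, 1 and 2 reads, against 153, 203 and 121 RPM in Ly6C+ monocytes. Replicate 2 was the highest Ly6C- library for both proteases. Fcnb had 2 reads in all 4 Ly6C- libraries, both in replicate 2, against 143 reads in the 3 Ly6C+ libraries (ratio 0.00983 with a 95% counting interval of 0.00118 to 0.0362). Srgn was the exception, with 1668, 1425, 1324 and 1361 RPM in Ly6C- monocytes, against 280, 257 and 204 RPM in Ly6C+ monocytes (2.55 ± 0.14 SE, limma adjusted p = 2.24e-14).

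Replicate 2 of the marrow Ly6C- group stood apart in more than the members. Its neutrophil marker sum was 765 RPM, against 111.0 to 240.7 RPM in the other 3 libraries, and the part of other cells in its values was not tested. Without it the same count of 8 members was called, Elane had a log2 ratio of -6.31 and Prtn3 of -5.91. The Calr call, with a log2 ratio of -0.68 ± 0.24 (SE, limma adjusted p = 0.0241), depended on single libraries, since the limma adjusted p was 0.101 without Ly6C- replicate 3, 0.0668 without Ly6C+ replicate 3 and 0.0876 without Ly6C+ replicate 4.

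In 7-week blood the remaining enzyme mRNA was lower again in Ly6C- than in Ly6C+ monocytes, and Srgn higher. Of the members 5 were called lower and 1 higher, where 20.3% of genes were called. Prtn3 had 27.2, 9.64 and 32.7 RPM in Ly6C- monocytes, against 162, 53.8, 139 and 48.6 RPM in Ly6C+ monocytes (log2 ratio -2.04 ± 0.54 SE, limma adjusted p = 0.00695). Srgn had 1558, 1554 and 1562 RPM in Ly6C- monocytes, against 581, 700, 571 and 676 RPM in Ly6C+ monocytes (1.31 ± 0.14 SE, limma adjusted p = 4.16e-08). Neither pair of groups overlapped, as for 2228 of the 11373 genes tested, and the 3 Srgn values of Ly6C- monocytes were nearly equal. Mpo fell (log2 ratio -2.36, limma adjusted p = 0.00610), as did Ctsg (-1.47, limma adjusted p = 0.0299) and Elane (-1.80, limma adjusted p = 0.0495), but their groups overlapped. Without Ly6C- replicate 2 only 2 members kept a call, with limma adjusted p = 0.0779 for Prtn3, 0.0690 for Mpo, 0.149 for Ctsg and 0.245 for Elane. The Elane call also ended without Ly6C- replicate 1 or Ly6C+ replicate 1, 2 or 3 (limma adjusted p = 0.0512 to 0.170), and the Ctsg call without Ly6C- replicate 3 or Ly6C+ replicate 1, 2 or 3 (limma adjusted p = 0.0580 to 0.0953). Neutrophil markers summed to 71.8 to 113.8 RPM in Ly6C- and 348.0 to 459.4 RPM in Ly6C+ monocytes, and their part was not tested. Fcnb had 1 read in the 3 Ly6C- libraries, against 44 reads in the 4 Ly6C+ libraries (ratio 0.0320 with a 95% counting interval of 0.000793 to 0.188).

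By mean RPM, blood Ly6Cint monocytes lay between blood Ly6C+ and Ly6C- monocytes for all members but Calr and Nkg7. Calr averaged 304 RPM in Ly6C+, 228 RPM in Ly6Cint and 430 RPM in Ly6C- monocytes, and Nkg7 averaged 6.04, 2.27 and 3.08 RPM. Against blood Ly6C+ monocytes 1 member was called higher and 2 lower, where 27.2% of genes were called. Srgn had 1096, 1075 and 1116 RPM in Ly6Cint monocytes, against 571 to 700 RPM in Ly6C+ monocytes (log2 ratio 0.80, limma adjusted p = 0.000156). Prtn3 had 67.6, 22.3 and 18.1 RPM in Ly6Cint monocytes, against 48.6 to 162 RPM in Ly6C+ monocytes (-1.51, limma adjusted p = 0.0380). Those Prtn3 groups overlapped, and the call was lost without Ly6Cint replicate 2 or 3 or Ly6C+ replicate 1 or 3 (limma adjusted p = 0.0959 to 0.175). Ly6Cint replicate 1 had the most Prtn3, Elane, Ctsg and Mpo of its group, and its neutrophil markers summed to 291 RPM, against 61.2 and 70.8 RPM in the other 2 libraries and 348.0 to 459.4 RPM in Ly6C+ monocytes. The part of those markers was not tested, and without that library Prtn3 was still called (limma adjusted p = 0.0125). Without Ly6C+ replicate 4, which had the least Ctsg and Mpo of its group, the count of members called was 5, with Ctsg (limma adjusted p = 0.0173) and Mpo (limma adjusted p = 0.0128) added.

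By log2 ratio, the step from Ly6C+ to Ly6C- monocytes was larger in marrow than in blood for most members. The difference between the 2 effects was called for 7 of 9, with 6 below 0 and 1 above, where 17.8% of genes were called. For Prtn3 the marrow effect was lower than the blood effect by 3.25 ± 0.76 on the log2 scale (SE, limma adjusted p = 0.00325) and for Ctsg by 3.16 ± 0.69 (SE, limma adjusted p = 0.00159). For Srgn, the marrow effect was higher by 1.24 ± 0.20 (SE, limma adjusted p = 5.72e-05). Mean levels of the proteases lay near each other in marrow and blood Ly6C- monocytes (Prtn3 29.0 and 23.2, Ctsg 17.9 and 14.5, Elane 3.77 and 2.71 RPM). In Ly6C+ monocytes they lay far apart (Prtn3 782 and 101, Ctsg 348 and 49.0, Elane 159 and 15.65 RPM). The 1 RPM added before the log shrinks ratios of low values, and its part here was not tested. With edgeR on the recovered reads 5 of 9 were called, without Elane (adjusted p = 0.154), Fcnb (0.696) and Mpo (0.131). Fcnb was also lost with 0.25 RPM added (limma adjusted p = 0.0903), and the counting intervals of its ratios in marrow and blood overlapped. The Mpo call (limma adjusted p = 0.0429) ended without marrow Ly6C- replicate 1 or 3, any marrow Ly6C+ library, blood Ly6C- replicate 1 or 3, or blood Ly6C+ replicate 4 (0.0521 to 0.134), and the Calr call (0.0148) without blood Ly6C- replicate 3 (0.0651).

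Over the 7 populations of the 7-week table, Prtn3 was ordered cMoP, MDP, marrow Ly6C+, blood Ly6C+, blood Ly6Cint, marrow Ly6C- and blood Ly6C- by mean RPM. The libraries of neighbouring groups did not overlap as far as blood Ly6C+ monocytes, and overlapped from there down. Elane had another order at the top, cMoP, marrow Ly6C+, MDP, and then the same low groups. Srgn had a different pattern, with blood Ly6C- (1558 ± 3.67 RPM, SD, n = 3) and marrow Ly6C- (1445 ± 155 RPM, n = 4) above cMoP (1283 ± 44.9 RPM, n = 4) and marrow Ly6C+ (247 ± 38.5 RPM, n = 3) lowest. The blood and marrow Ly6C- libraries overlapped for Srgn, and so did marrow Ly6C- and cMoP.

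Genes with the most similar pattern were taken as the 3 with the highest Pearson r over the 25 libraries of the 7-week table, among 7389 genes that reached 20 RPM in a group. Ctsg and Mpo were each other's nearest gene (r = 0.991), and Prtn3 was nearest to Ctsg (0.985), Mpo (0.982) and Serpinb1a (0.973). Myb came next after Mpo and Prtn3 for Ctsg (0.98). Elane was nearest to Ms4a3 (0.967) and Bzrap1 (0.96), and only then to its neighbour Prtn3 (0.953). Bzrap1 is an older symbol of Tspoap1, the gene beside Mpo on chromosome 11. Nkg7 was nearest to Lrrc59 (0.951), a ribosome-binding protein of the endoplasmic reticulum, and Calr to Mogs (0.974), which trims sugar chains there. Fcnb was nearest to Clec5a (0.947), a myeloid lectin receptor, and Igsf6 to Msrb1 (0.953). In the 26 transfer libraries r was 0.968 for Elane with Ms4a3, 0.339 for Elane with Bzrap1, 0.44 for Prtn3 with Serpinb1a, 0.784 for Ctsg with Myb, 0.687 for Fcnb with Clec5a and 0.311 for Igsf6 with Msrb1. It was -0.082 there for Nkg7 with Lrrc59 and 0.055 for Calr with Mogs, so these likenesses did not carry over to that table. All these values describe libraries that share populations and carry no test.

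In ko blood monocytes Prtn3 was higher than in wt in both populations. In Ly6C+ monocytes it had 63.3 and 99.4 RPM in ko, against 25.6 and 23.7 RPM in wt (log2 ratio 1.65 ± 0.33 SE, limma adjusted p = 0.0237). In reads this was 97 and 153 in ko against 116 and 78 in wt libraries, which were deeper, and the ratio of the sums was 3.28 with a 95% counting interval of 2.71 to 3.98. Prtn3 was the 1 member called, where 1.26% of genes were called and 4779 of the 11388 genes tested had groups that did not overlap. Both ko libraries lay above both wt libraries, but the call was lost without ko replicate 2, wt replicate 1 or wt replicate 2 (limma adjusted p = 0.294, 0.145 and 0.235).

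In Ly6Cint monocytes Prtn3 had 7.61 and 12.1 RPM in ko, against 1.76 and 1.14 RPM in wt (log2 ratio 2.13 ± 0.33 SE, limma adjusted p = 0.00124). The sums were 77 reads in ko and 15 in wt, a ratio of 6.14 with a 95% counting interval of 3.5 to 11.5. Calr had 1080 and 1123 RPM in ko, against 689 and 527 RPM in wt (0.87 ± 0.21 SE, limma adjusted p = 0.0225). These were the 2 members called, both higher, where 6.33% of genes were called. Neither gene's groups overlapped, as for 4928 of the 11388 genes tested. The Calr call was lost without ko replicate 1 (limma adjusted p = 0.101), ko replicate 2 (0.155) or wt replicate 2 (0.128). With the 4 Ly6Cint libraries fitted alone, 0 members were called by limma (adjusted p = 0.0526 for Prtn3), whereas 5 had an unadjusted p under 0.05 in the fit of the whole table and edgeR called 3.

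The other enzymes were close to the limit of detection in ko and wt blood. Elane had 2 and 2 reads in ko Ly6C+ libraries against 1 and 0 in wt, and Mpo had 0 and 2 reads in ko against 3 and 0 in wt. Ctsg had 5 and 14 reads in ko Ly6C+ libraries, which is 3.26 and 9.09 RPM, against 20 and 8 reads in wt, which is 4.41 and 2.43 RPM. Differences in Mpo and Ctsg were not detectable in Ly6C+ monocytes at this depth, and Elane was called with 0.25 RPM added in place of 1 RPM (limma adjusted p = 0.0383) but not otherwise (0.131). Prtn3 made up 89.5% to 93.3% of the 4-enzyme sum in ko Ly6C+ libraries and 82.9% to 90.7% in wt Ly6C+ libraries. Srgn had 803 and 909 RPM in ko Ly6Cint monocytes, against 1240 and 1418 RPM in wt (log2 ratio -0.63 ± 0.19 SE, limma adjusted p = 0.0577, edgeR adjusted p = 0.0328). Its groups did not overlap there, while in Ly6C+ monocytes they did, at 737 and 796 RPM in ko and 756 and 872 RPM in wt.

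Transcription factors were called in both ko comparisons, and chaperones in Ly6Cint monocytes. Cebpe averaged 44.3 ± 0.14 RPM in ko Ly6C+ and 8.46 ± 1.37 RPM in wt Ly6C+ monocytes (SD, n = 2 each; log2 ratio 2.27, limma adjusted p = 0.00471). Cebpa averaged 189 ± 22.7 RPM in ko Ly6Cint and 64.7 ± 15.5 RPM in wt Ly6Cint monocytes (log2 ratio 1.55, limma adjusted p = 0.000976). Of the 18 chaperones 7 were called higher in ko Ly6Cint monocytes and 0 lower, with a median of 0.68 against 0.07 over all genes. In ko Ly6C+ monocytes the chaperones had a median of 0.34 against 0.02 over all genes. Neutrophil markers summed to 322 to 344 RPM in ko Ly6C+ and 383 to 397 RPM in wt Ly6C+ monocytes, and to 92.1 to 149.6 RPM in ko Ly6Cint and 116 to 142 RPM in wt Ly6Cint monocytes. The following marker sums moved with genotype in Ly6Cint monocytes without overlap. NK and T cell markers were 52.6 to 95.4 RPM in ko and 18.6 to 32.9 RPM in wt. Of the 16 genes of that list 11 were at 0 in ko and 11 in wt, with Ncr1, Gzmb, Prf1 and Cd3e among both. Cd3g and Cd8a were at 0 in wt only, and Tbx21 and Cd3d in ko only. Monocyte markers were 2731 to 3022 RPM in ko and 4055 to 4142 RPM in wt. The list named marrow progenitor markers (6 genes) summed to 1181 to 1265 RPM in ko and 2219 to 3028 RPM in wt. That list does not mark progenitors alone. It summed to 2286 to 2446 RPM in 7-week marrow Ly6C- monocytes, against 1360 to 1559 RPM in 7-week marrow MDP. Kit, a gene of that list, was at 0 in ko Ly6Cint monocytes. The sum is thus not read as a level of progenitor cells. In Ly6C+ monocytes the NK and T cell markers were 22.7 to 35.9 RPM in ko and 19.8 to 20.49 RPM in wt, the monocyte markers 4896 to 5048 RPM in ko and 5275 to 6291 RPM in wt, and the progenitor markers 1034 to 1178 RPM in ko and 1539 to 1597 RPM in wt. The part of these shifts in the values of the members was not tested. Whether the ko effect differed between Ly6Cint and Ly6C+ monocytes was tested directly: 0 of 9 members were called by limma, 0 had an unadjusted p under 0.05 and 0 were called by edgeR, where 0.00878% of genes were called. For Prtn3 the difference of the effects was 0.48 ± 0.47 on the log2 scale (SE), which leaves room for effects of unequal size.

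In wt blood, Ly6C- against Ly6C+ monocytes had 3 members called lower and 1 higher, where 10.5% of genes were called. Groups did not overlap for 6328 of the 11388 genes tested. Prtn3 had 0.50 and 2.05 RPM in Ly6C- monocytes, against 25.6 and 23.7 RPM in Ly6C+ monocytes (log2 ratio -3.58, limma adjusted p = 6.41e-06). Srgn had 1768 and 2097 RPM in Ly6C- monocytes, against 756 and 872 RPM in Ly6C+ monocytes (1.25, limma adjusted p = 0.000369). Fcnb (-2.002, limma adjusted p = 0.00122) and Ctsg (-1.81, limma adjusted p = 0.0128) fell too. The Ctsg call was lost without Ly6C+ replicate 1 (limma adjusted p = 0.140) or Ly6C- replicate 1 (0.130), and no called member's groups overlapped.

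**Figure D4:**
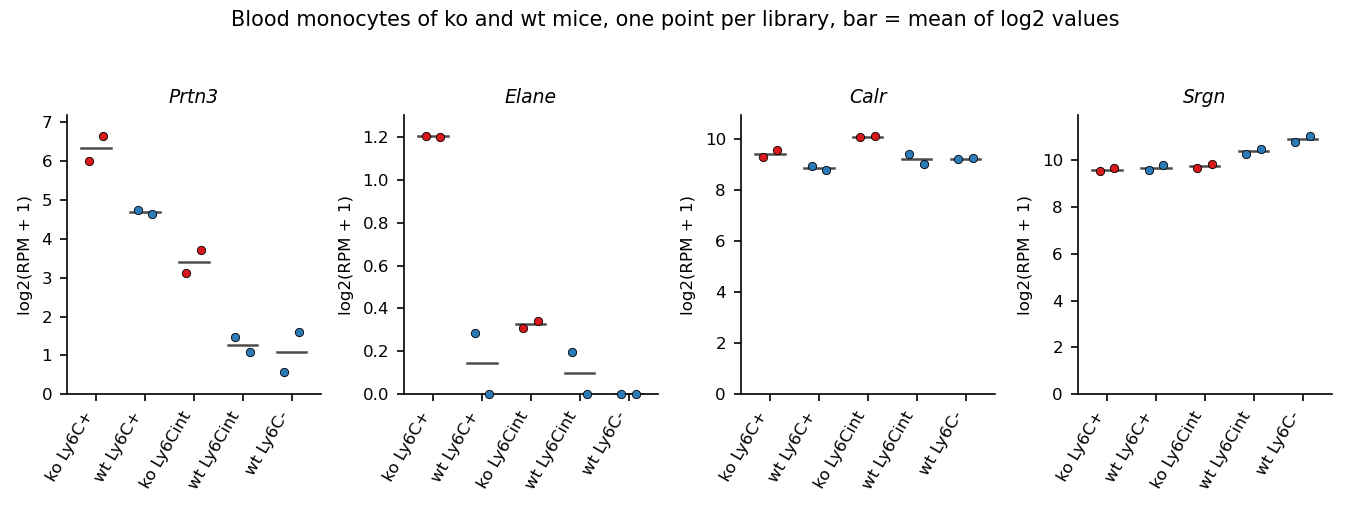
Level of Prtn3, Elane, Calr and Srgn in blood monocytes, as log2 of RPM plus 1, with ko (red) left of wt (blue) within each population, 1 point per library and a bar at the group mean. Prtn3 lies higher in ko than in wt in both populations, and Elane is near 0 throughout.

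In the grafts the 4 enzyme mRNAs were listed far below their level before transfer, and mostly at 0. Elane was listed at 93.8 and 96.0 RPM before transfer and at 0 in all 12 graft libraries at 24, 36 and 48 h, in blood and spleen alike. Ctsg was listed at 77.6 and 68.8 RPM before transfer and at 0 in 11 of the 12 graft libraries, with 1.31 RPM in 1 blood graft at 36 h. Mpo had 42.5 and 26.7 RPM before transfer and at most 1.75 RPM in any graft. The first measured time was thus already at or near 0 for these 3 genes, and the speed of the fall within the first 24 h was not measured. Depth is unknown in this table, so a value listed at 0 bounds nothing. Fewer genes of any kind were listed above 0 in grafts, at 7734 to 10970 per library, against 11719 and 11574 before transfer. The median log2 ratio of all genes tested against the cells before transfer was -0.53 in blood grafts at 24 h and -0.49 at 48 h. In spleen grafts it was -0.21 and -0.45. The part of this lower detection in the falls was not tested.

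Prtn3 had 308 and 297 RPM before transfer, and was listed at 0 and 12.3 RPM in blood grafts at 24 h, 3.94 and 0 RPM at 36 h and 0 in both at 48 h. In spleen grafts it was listed at 4.38 and 3.07 RPM at 24 h, 0 and 1.31 RPM at 36 h and 0 and 4.82 RPM at 48 h. All 12 graft values lay far below both values before transfer. Against those cells, groups did not overlap for 6673 of the 12096 genes tested in blood grafts at 24 h and 6860 at 48 h. In spleen grafts this held for 6232 and 6708 genes. Fcnb was still measured in all 4 grafts at 24 h. It had 36.8 and 54.3 RPM before transfer, 9.64 and 2.63 RPM in blood grafts at 24 h, 0 and 11.4 RPM at 36 h and 0 in both at 48 h. In spleen grafts Fcnb had 9.20 and 2.19 RPM at 24 h and was listed at 0 at 36 and 48 h.

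Srgn had moved the other way by 24 h, the first measured time. It had 465 and 452 RPM before transfer, 2126 and 1434 RPM in blood grafts at 24 h, 1691 and 1882 RPM at 36 h, and 2290 and 2065 RPM at 48 h. In spleen grafts it had 1248 and 2228 RPM at 24 h, 1594 and 1346 RPM at 36 h, and 2075 and 2604 RPM at 48 h. Every graft library lay above both libraries taken before transfer, and no steady trend from 24 to 48 h was visible beyond the spread of each pair. At 24 and 48 h, groups also did not overlap for 6232 to 6860 of the 12096 genes tested.

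Against the cells before transfer, blood grafts at 24 h had 1 member called higher (Srgn, log2 ratio 1.93 ± 0.25 SE, limma adjusted p = 1.43e-05) and 5 lower (Elane, Prtn3, Ctsg, Mpo and Fcnb), where 13.3% of 12096 genes were called. The Fcnb call there (limma adjusted p = 0.0406) was lost without blood graft B or either library taken before transfer (limma adjusted p = 0.124 to 0.226). Blood grafts at 48 h also had 1 higher (Srgn, 2.24 ± 0.25 SE, limma adjusted p = 1.16e-06) and the same 5 genes lower, where 17.2% of genes were called. Spleen grafts at 24 h had 1 higher and 4 lower, where 5.8% of genes were called, and Fcnb was not called there (limma adjusted p = 0.0583). Spleen grafts at 48 h had 2 higher, Srgn (2.34 ± 0.25 SE, limma adjusted p = 7.46e-07) and Igsf6 (0.84 ± 0.24 SE, limma adjusted p = 0.0219), and 6 lower, with Calr added (-0.61 ± 0.19 SE, limma adjusted p = 0.0337), where 15.0% of genes were called. The Igsf6 and Calr calls rested on single libraries: leaving out either library taken before transfer or spleen graft B ended each, and leaving out spleen graft C ended that of Calr, with limma adjusted p = 0.111 to 0.140 for Igsf6 and 0.0714 to 0.206 for Calr.

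Nkg7 was uneven in the spleen. It had 29.4 and 21.0 RPM in spleen grafts at 24 h, 10.96 and 63.6 RPM at 36 h and 0 and 18.4 RPM at 48 h, against 0.876 and 5.70 RPM before transfer. Markers of NK and T cells (16 genes), in which Nkg7 is known to be abundant, summed to 98.6 to 167 RPM in spleen grafts at 24 h, 134.6 to 359 RPM at 36 h and 36.8 to 84.6 RPM at 48 h, against 15.8 to 20.2 RPM before transfer. The library with 63.6 RPM of Nkg7 was also the one with the 359 RPM sum, and at 36 h none of the 16 markers was at 0 in both libraries. Their part in the Nkg7 values was not tested. Nkg7 was not called in any graft comparison (limma adjusted p = 0.253 in spleen at 24 h).

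Ctsc and the transcription factors changed in the grafts as well. Ctsc averaged 344 ± 42.5 RPM in blood grafts at 48 h and 810 ± 45.5 RPM before transfer (SD, n = 2 each; log2 ratio -1.24, limma adjusted p = 0.00778). Cebpa fell to 62.2 ± 50.8 RPM in blood grafts at 48 h, against 200.3 ± 8.68 RPM before transfer (limma adjusted p = 0.00193), and Cebpb rose to 3124 ± 768 RPM, against 791 ± 20.1 RPM (limma adjusted p = 3.25e-07). Myb was listed at 0 in both blood grafts at 48 h and averaged 11.2 RPM before transfer. Of the 18 chaperones 7 were called lower in blood grafts at 48 h and 0 higher, with a median of -0.75 against -0.49 over all genes. Neutrophil markers summed to 335 to 633 RPM in blood grafts at 24 h, 203 to 243 RPM at 36 h, 199.8 to 200.7 RPM at 48 h and 208 to 358 RPM in spleen grafts, against 743 to 811 RPM before transfer, and their part in the falls was not tested.

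**Figure D5:**
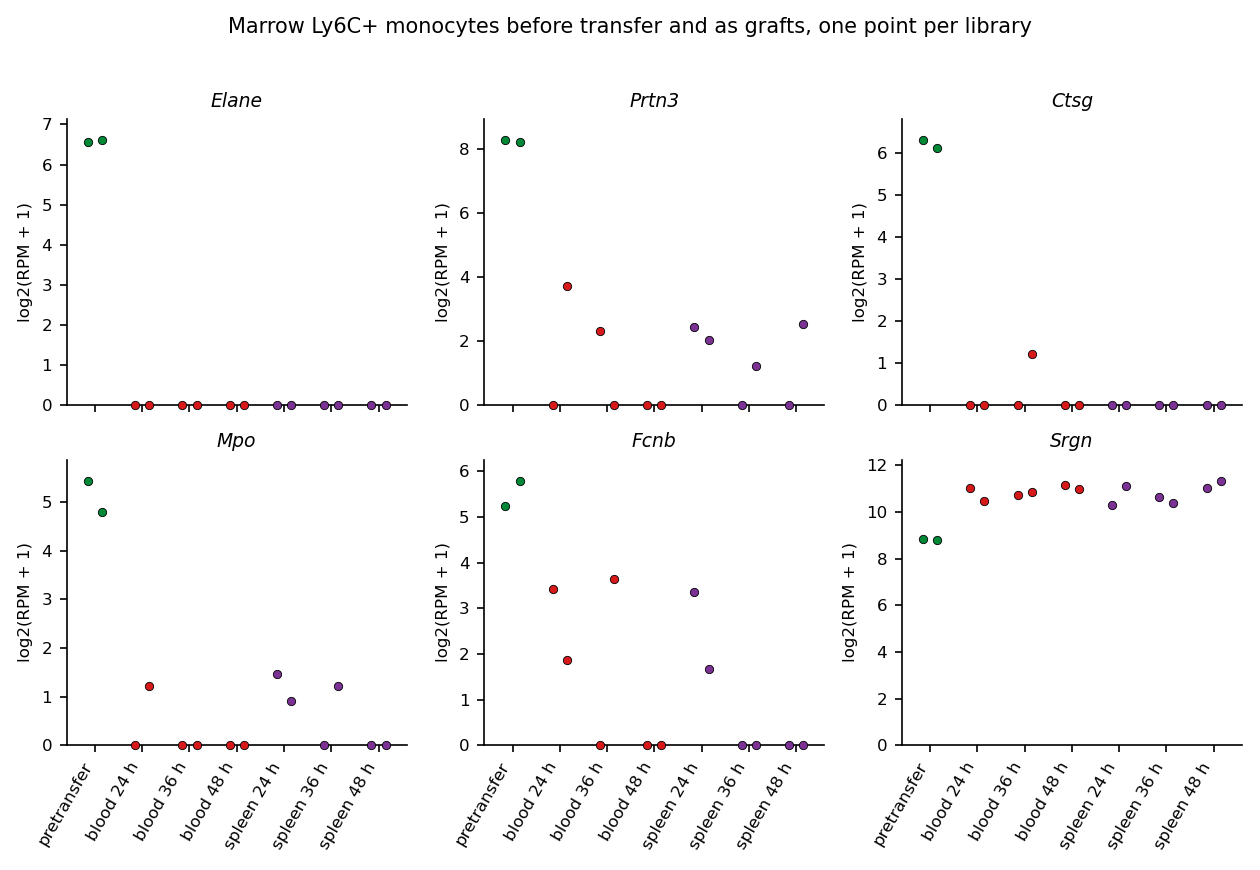
Level of 6 members in marrow Ly6C+ monocytes before transfer (green) and in grafts from blood (red) and spleen (purple) after 24, 36 and 48 h, as log2 of RPM plus 1, with 1 point per library. Elane is at 0 in all grafts, Fcnb keeps up to 11.4 RPM at 24 and 36 h, and Srgn is higher in every graft than before transfer.

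In host monocytes of the same experiment Srgn was the member that passed the test between Ly6C- and Ly6C+ cells. Host blood Ly6C- against Ly6C+ monocytes had 1 member called, Srgn, higher at 1434 and 1658 RPM in Ly6C-, against 647 and 727 RPM in Ly6C+ (log2 ratio 1.17 ± 0.25 SE, limma adjusted p = 0.00616), where 3.66% of genes were called. In the host spleen Srgn was again the 1 member called, higher at 1350 and 1504 RPM in Ly6C-, against 592 and 770 RPM in Ly6C+ (1.077 ± 0.25 SE, limma adjusted p = 0.0137), where 2.77% of genes were called. Both calls depended on single libraries: in blood the limma adjusted p was 0.108 without Ly6C- replicate B and 0.106 without Ly6C+ replicate A, and in spleen it was 0.0804 without Ly6C- replicate A, 0.160 without Ly6C- replicate B and 0.279 without Ly6C+ replicate A. Prtn3 was listed at 0 in both host blood Ly6C- libraries, against 23.7 and 14.5 RPM in Ly6C+, and at 1.31 and 0 RPM in host spleen Ly6C-, against 24.5 and 13.2 RPM in Ly6C+. These groups did not overlap, as for 5763 of the 12096 genes tested in blood and 5987 in spleen. The limma adjusted p was 0.0658 in blood and 0.188 in spleen.

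Between organs, host Ly6C+ monocytes were the population compared. Host spleen Ly6C+ against host blood Ly6C+ monocytes had 0 of 9 members called by limma, 2 with an unadjusted p under 0.05 and 1 called by limma with array weights, Calr (adjusted p = 0.0401), where 0.0909% of genes were called. Calr had 289 and 308 RPM in spleen, against 477 and 423 RPM in blood (log2 ratio -0.59 ± 0.19 SE, limma adjusted p = 0.896). Prtn3 had 24.5 and 13.2 RPM in spleen, against 23.7 and 14.5 RPM in blood (-0.04 ± 1.26 SE), an interval too wide to show that the level was the same.

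How reads were shared between overlapping genes bears on 3 members. Prtn3 overlaps Plppr3, Mpo overlaps the antisense gene Gm11505 and Igsf6 overlaps Mettl9, each on the opposite strand in the annotation. The sources used here do not state whether counting used strand, so reads of each pair cannot be told apart.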

How the data were processed

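RNA libraries of sorted cells were compared by population, genotype and transfer time. Per the submitters' processing notes, reads were handled with bcl2fastq, HISAT 0.1.5, SAMtools and HOMER on mm9; counting options are not given in the sources used here. Signal values were deposited for the 7-week and knockout libraries: reads per gene, scaled by the authors to 1 total. From these whole reads were recovered (within 0.1 read). In 7-week blood Ly6Cint replicate 2 the step of 1 read lies near a power of 10, so whole multiples say little there, and its reads were used all the same. The values deposited for the transfer libraries are scores, scaled and then rounded, so read numbers are lost. RPM assume a scaled total of 10000000, which no source states. For the transfer table RPM are shares of the listed sum.

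Genes reaching 2 RPM in at least 3 (7-week) or 2 libraries were tested: 11373, 11388 and 12096 genes. limma 3.58.1 (R 4.3.3) was fitted to log2(RPM + 1), which understates changes of low genes, with all libraries of a table and Benjamini-Hochberg adjustment over all genes tested. edgeR 4.0.16 on recovered reads, other pseudocounts, filters and scalings, and leaving out each library were alternatives. Counting intervals are exact and cover counting error only. Python 3.11.15, scipy 1.17.1 and matplotlib 3.10.9 served for the rest. Genes named beside the members were, per list and comparison, up to 4 called genes with the smallest p, plus Ctsc, Serpinb1a, Cebpe, Gfi1, Cebpa, Myb and Ms4a3, and the 3 genes most alike to each member (for Srgn not reported here); Prss57 and Hspa5 in cMoP against MDP were added after their values were seen. The members and lists were chosen with earlier results of these data known. Deviations of same-numbered libraries from group means had a median correlation of -0.004, 0.004 and 0.007 in the 3 tables, so replicate numbers were not taken as pairs.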

Additional observations from a re-analysis of the deposited data

Results flagged for a closer look

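In marrow Ly6C- monocytes of the 7-week mice, replicate 2 stood far above the other 3 libraries for 4 genes. It had 11.8 RPM of Elane (next library 2.22 RPM), 45.7 RPM of Ctsg (next 11.1 RPM), 1.31 RPM of Fcnb (others 0) and 6.53 RPM of Nkg7 (next 0.586 RPM). These were 4 of 36 gene and group combinations examined for a single distant library, and chance marks about 1 in 20 groups. That rate does not hold near the floor, since any value above 0 is marked where all others are 0, as for Fcnb. In replicate 2, 1 read was worth 0.653 RPM, and its Fcnb value was 2 reads. All 4 marks fell on the same library, so they are not independent. The neutrophil marker sum of the same library was 765 RPM, against 111.0 to 240.7 RPM in the other 3, and its part was not tested.

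The Ly6C- against Ly6C+ effect differed between marrow and blood for 7 members, by a test of the difference itself (limma, adjusted p under 0.05). As marrow minus blood on the log2 scale it was -3.84 for Elane, -3.25 for Prtn3, -3.16 for Ctsg, -2.51 for Mpo, -2.17 for Fcnb, -1.19 for Calr and 1.24 for Srgn. The limma adjusted p of Mpo was 0.0429 and of Calr 0.0148, and edgeR gave an adjusted p of 0.154 for Elane, 0.131 for Mpo and 0.696 for Fcnb. Starting levels differed too: mean Prtn3 was 782 RPM in marrow and 101 RPM in blood Ly6C+ monocytes, against 29.0 and 23.2 RPM in Ly6C- monocytes.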

How the results depend on the processing

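No called log2 ratio changed sign under the alternatives run. The count of members called moved by over 1.5 times in 9 comparisons. For blood Ly6C- against Ly6C+ at 7 weeks it was 6, 3 with the compared libraries alone and 2 to 7 leaving out 1 library. For blood Ly6Cint against Ly6C+ it was 3, and 2 to 5 leaving out 1 library. For 8-week cMoP against MDP it was 2, 4 with edgeR, 1 with array weights, 1 with the compared libraries alone and 1 to 2 leaving out 1 library. For ko against wt Ly6C+ it was 1, 0 with no filter, 2 with array weights, 3 alone and 0 to 1 leaving out 1 library. For ko against wt Ly6Cint it was 2, 0 alone and 1 to 2 leaving out 1 library. For spleen grafts at 24 h it was 5, 3 with 0.25 RPM added, 3 alone and 5 to 6 leaving out 1 library. For host blood it was 1, 2 with quantile scaling, 3 with array weights, 2 alone and 0 to 1 leaving out 1 library. For host spleen it was 1, 4 with array weights, 3 alone and 0 to 2 leaving out 1 library. For host spleen against blood Ly6C+ it was 0 by limma, and 1 with array weights. The cause of these moves was not tested.

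With the replicate number as a replicate block the host blood count was 2. The replicate block also ended the call of Elane in 7-week blood Ly6C- against Ly6C+ monocytes (limma adjusted p = 0.0514) and of Mpo in the difference between marrow and blood (limma adjusted p = 0.0599), so these counts were 5 and 6. The numbers did not pair the libraries.

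Quantile scaling turned the sign of 5 of 198 log2 ratios, of size up to 1.22 (Nkg7 in blood grafts at 24 and 48 h, Calr in 8-week cMoP against MDP, Igsf6 in the difference between ko effects, and Srgn in host spleen against blood), and shifted the median of all genes by -0.07 to 0.56. edgeR turned 1 of 135, Mpo in the difference between ko effects. None of these was called. With 2 libraries per group and few reads of Elane, Mpo, Ctsg and Fcnb in blood, small differences could not be seen.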
